A study of Homo sapiens with 33 samples.

Results

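RBM27 is an RNA-binding protein with a zinc finger, known from human cells as a partner of the machinery that directs polyadenylated nuclear RNA to the exosome. Here it was studied as an RNA: stretches of RBM27 were made as synthetic oligonucleotides, called tiles, in a pool used to find RNA recovered with PUM2. The RBM27 tiles were taken by name, as all entries of the PUM2 pool whose name starts with RBM27. They numbered 83 of the 1599 tiles of this pool and of the 3358 tiles of the whole series, with tile numbers 1 to 83 and no number missing. Each tile was present with 22 barcodes, so that 1826 oligonucleotides represent RBM27.

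PUM2 belongs to the Pumilio family of RNA-binding proteins. Pumilio proteins recognise a short element, mostly in the 3' untranslated regions of mRNAs, and are best known for lowering the stability and translation of the mRNAs they bind. Neighbouring tiles of an mRNA may share sequence, so that an element could lie in both. Tile names give an order but no position, and the tile sequences were not used here, so no element was located and no tile can be assigned to a coding or untranslated region.

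The pool was transfected into HEK293T, a human embryonic kidney cell line, without overexpression of any protein. Cells were harvested after 48 hours and fixed with 0.1% formaldehyde for 10 minutes. RNA was then read by amplicon sequencing of cDNA from 3 anti-PUM2 immunoprecipitates and 3 Input samples, which the deposited table names A, B and C in each group. No precipitation with an unrelated antibody is among these groups, so recovery common to any precipitation cannot be told apart from recovery with PUM2. The labels do not state whether the libraries of a group came from separate cultures. The p-values therefore reflect only how far these libraries differ from each other, and that spread may be of technical origin.

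The immunoprecipitates held 15986799 to 17727926 reads, and the Input libraries 29433144 to 35092298. RBM27 tiles took 3.38%, 3.45% and 3.51% of the reads of the immunoprecipitates A, B and C, against 3.88%, 3.89% and 3.84% of the Input libraries. The shares did not overlap between the groups (3.45% ± 0.07 in the immunoprecipitates and 3.87% ± 0.03 in Input, SD, n = 3 each, two-sided exact permutation p = 0.1, the smallest that 3 against 3 allows). By plain share of reads, RBM27 as a whole was thus not a larger part of the immunoprecipitates than of Input. The fold changes below also use the TMM method, with factors of 0.907 to 0.940 in the immunoprecipitates and 1.07 to 1.11 in Input. The direction of the difference in the RBM27 total therefore depends on the scaling. Which of its tiles held the reads also differed between the groups.

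Enrichment of RBM27 with PUM2 was called in a few places along the tile numbers. Tiles 43, 46, 47, 59, 60, 68, 69, 80 and 81 were higher in the immunoprecipitate, and tiles 25 and 83 were lower (edgeR quasi-likelihood test, Benjamini-Hochberg adjusted p under 0.05 over the 1563 tiles tested in the pool). These 9 tiles together held 15.6%, 16.0% and 13.8% of all RBM27 reads in the immunoprecipitates A, B and C, against 3.38%, 3.32% and 3.29% in the Input libraries. Since the same values chose the tiles, this change in share is a description only.

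Of the 83 tiles, 80 passed the filter on low counts, 9 of these were called higher (11.2%) and 2 lower (2.50%), and 69 were not called. In the whole pool 14.1% of tested tiles were called higher and 4.16% lower, so RBM27 had a share of calls near the background. For comparison, 27 of 66 tested tiles of NORAD, a noncoding RNA rich in Pumilio elements, were called higher and 1 lower, and among the 79 tested tiles of PUM2's own mRNA these counts were 20 and 5. With scaling by library size alone the split in the pool was 198 higher and 227 lower, against 220 and 65 with TMM. The libraries of the groups did not overlap in 25 of the 80 RBM27 tiles (31.2%), against 40.3% in the pool. All 9 of those with higher immunoprecipitate values were called, whereas 14 of the 16 with lower values were not. In the pool 308 of the 1563 tested tiles did not overlap and were higher, and 322 did not overlap and were lower. With 65 pool tiles called lower in all, lower values without a call were not particular to RBM27. The median log2 fold change over the 80 tiles was -0.15, against -0.06 over all 1563 tested tiles.

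The highest fold changes of RBM27 belonged to tiles 68 and 69, which were scarce in Input and abundant in every immunoprecipitate. RBM27:68 was at 1011, 951 and 895 CPM (read counts scaled to library size and by the TMM method) in the immunoprecipitates A, B and C, against 8.00, 9.73 and 18.6 CPM in the Input libraries. The lowest immunoprecipitate value lay far above the highest Input value. The log2 fold change was 6.29 ± 0.38 (SE, n = 3 against 3), or 78.5-fold (adjusted p = 7.81e-06 by edgeR). RBM27:69 was at 587, 736 and 420.5 CPM in the immunoprecipitates, against 1.20, 2.63 and 3.17 CPM in Input, with a log2 fold change of 7.95 ± 0.50, or 248-fold (adjusted p = 9.56e-06 by edgeR). It had the third highest fold change of the pool, and RBM27:68 ranked 6.

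The size of these folds depends on very few Input reads. RBM27:69 rested on 38, 89 and 123 reads in the Input libraries A, B and C, and RBM27:68 on 254, 329 and 723. Exact Poisson 95% intervals put RBM27:69 at 0.847 to 1.64 CPM in Input A and at 2.63 to 3.78 CPM in Input C. They cover the counting error of reads only and take each read as independent, although copies of 1 molecule may be counted more than once. These intervals do not meet, but in Input A the tile was read from only 4 barcodes, a source of variation that the intervals do not cover. Among the 80 tested RBM27 tiles RBM27:69 had the lowest Input level and RBM27:68 ranked 76 from the top, whereas in the immunoprecipitates they ranked 24 and 7. Of 46 other tiles of the pool with an Input mean at or below that of RBM27:68, 9 were called higher and 5 lower.

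The reads of tiles 68 and 69 in the immunoprecipitates were spread over many barcodes. All 20 barcodes of RBM27:68 with at least 30 reads over the 6 libraries were higher in the immunoprecipitate, as were all 20 of RBM27:69. With at least 10 reads the count for RBM27:68 was 20 of 21. Of the 20 barcodes of RBM27:68, 14 reached 30 reads in Input alone and all 14 were higher, whereas for RBM27:69 only 2 barcodes did, both higher, so its other 18 passed the minimum with the help of the immunoprecipitate reads that the count compares. These barcodes make up the tile sums and are a description, not a further test. For single barcodes of RBM27:68 the log2 ratio of the mean CPM values (0.1 CPM added to each) ran from 2.17 to 8.18, with a median of 6.15. No barcode dominated the immunoprecipitate: the one of most reads held 14.7% of the RBM27:68 reads and 12.9% of the RBM27:69 reads. Barcode 1 of RBM27:68 had 1709, 2973 and 1925 reads in the immunoprecipitates A, B and C, against 9, 40 and 65 reads in Input. Barcode 6 of RBM27:69 had 1017, 1874 and 597 reads, against 14, 0 and 50 reads in Input.

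RBM27:69 was also read from more of its barcodes after precipitation. Of its 22 barcodes, 17, 19 and 16 had a read in the immunoprecipitates A, B and C, against 4, 8 and 9 in the Input libraries, and 8 barcodes had reads in the immunoprecipitates alone. It was the only 1 of the 83 RBM27 tiles with more barcodes read in every immunoprecipitate than in any Input library. The tile had 9405, 10665 and 7005 reads in the immunoprecipitates A, B and C, against 38, 89 and 123 in Input. The barcode counts thus follow from the same reads as its fold change and are no further evidence. In 75 tiles every immunoprecipitate had fewer barcodes than any Input library.

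The other strong pair was made up of tiles 80 and 81, near the end of the tile numbers. RBM27:80 was at 1523, 1678 and 1285 CPM in the immunoprecipitates A, B and C, against 114, 128 and 115 CPM in Input. The groups were far apart and the Input libraries close to each other, and among the 9 tiles the standard error was smaller for RBM27:46 alone. Its log2 fold change was 3.65 ± 0.16, or 12.6-fold (SE, n = 3 against 3, adjusted p = 1.86e-06 by edgeR). RBM27:81 was at 642, 741 and 526 CPM in the immunoprecipitates, against 26.9, 42.1 and 37.9 CPM in Input, with a log2 fold change of 4.16 ± 0.27, or 17.9-fold (adjusted p = 1.29e-05 by edgeR).

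RBM27:80 became one of the most abundant RBM27 tiles in the immunoprecipitate. By mean level it ranked 4 of 80 there and 54 of 80 in Input, where it was supported by 12387 reads over the 3 libraries. Of its 22 barcodes, 20 were higher in the immunoprecipitate, 16 had reads in all 3 immunoprecipitates, and 2 had none in any of them. Barcode 6 of this tile had 4755, 3402 and 3619 reads in the immunoprecipitates, against 228, 420 and 439 in Input. RBM27:81 had 16 of 16 usable barcodes higher and 9 with reads in all 3 immunoprecipitates. Of these 16, 13 reached 30 reads in Input alone, all 13 higher, and the others passed the minimum with the help of immunoprecipitate reads.

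Within each strong pair the member that was scarcer in Input had the larger fold. The same order held for tiles 46 and 47 and, with nearly equal Input levels, for tiles 59 and 60. Input is the denominator of the fold, so the measures are not independent and this order is a description only. The log2 ratio of RBM27:68 to RBM27:69 was 0.75 ± 0.36 in the immunoprecipitates and 2.35 ± 0.43 in Input (SD, n = 3 each). That of RBM27:80 to RBM27:81 was 1.24 ± 0.05 in the immunoprecipitates and 1.76 ± 0.28 in Input. The groups did not overlap in either ratio, but with 3 against 3 the exact permutation p could not fall below 0.1, and it was 0.1 for both (0.2 after Benjamini-Hochberg adjustment over the 4 pairs compared). For tiles 59 over 60 the log2 ratio was -0.37 ± 0.59 in the immunoprecipitates and 0.01 ± 0.09 in Input (exact permutation p = 0.4). For tiles 46 over 47 it was 2.72 ± 0.56 and 3.44 ± 0.09 (exact permutation p = 0.2).

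Tiles 59 and 60 formed a weaker pair. RBM27:59 was at 218, 161 and 249 CPM in the immunoprecipitates A, B and C, against 40.2, 42.2 and 49.7 CPM in Input, with a log2 fold change of 2.25 ± 0.34, or 4.75-fold (adjusted p = 0.00176 by edgeR). RBM27:60 was at 265, 323 and 221 CPM, against 41.8, 43.2 and 45.9 CPM in Input, with a log2 fold change of 2.63 ± 0.30, or 6.18-fold (adjusted p = 0.00031 by edgeR). The groups did not overlap in either tile. Here fewer barcodes carried the signal: RBM27:59 was read from 6, 6 and 8 of its 22 barcodes in the immunoprecipitates, against 21, 19 and 16 in Input. Only barcode 18 was read in all 3 immunoprecipitates, with 801, 1 and 394 reads in A, B and C. RBM27:60 was read from 7, 8 and 7 barcodes, against 14, 13 and 13 in Input. Of the barcodes with at least 30 reads, 13 of 20 were higher for RBM27:59 and 13 of 14 for RBM27:60.

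Tiles 43, 46 and 47 made up a further, more modest group. RBM27:43 was at 324, 172 and 303 CPM in the immunoprecipitates A, B and C, against 86.3, 83.6 and 84.9 CPM in Input, with a log2 fold change of 1.65 ± 0.32, or 3.14-fold (adjusted p = 0.00711 by edgeR). It was the only tile called higher that had no neighbour called higher. Its 9, 8 and 8 barcodes with reads in the immunoprecipitates included none that was read in all 3, whereas 18 of its 22 barcodes were read in all 3 Input libraries.

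RBM27:46 had the smallest fold of the tiles called higher. It was at 1007, 1094 and 1149 CPM in the immunoprecipitates, against 826, 786 and 715 CPM in Input, with a log2 fold change of 0.48 ± 0.13, or 1.40-fold (adjusted p = 0.0309 by edgeR). In the immunoprecipitates 15 of its 22 barcodes were read in all 3 libraries, and 14 of 22 were higher. RBM27:47 was at 177, 222 and 113 CPM in the immunoprecipitates, against 72.9, 70.7 and 71.0 CPM in Input, with a log2 fold change of 1.25 ± 0.36, or 2.38-fold (adjusted p = 0.0483 by edgeR), and 12 of 21 usable barcodes higher.

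The calls of tiles 46 and 47 were the least firm. Both were lost when any 1 Input library was left out and under scaling by library size alone, and RBM27:47 also when immunoprecipitate A or B was left out (adjusted p up to 0.198 in edgeR over these refits). The other 7 tiles called higher passed in each of 13 refits.

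The tiles directly beside the enriched ones did not pass the test, and for several of them the error was too large to tell them from their enriched neighbours. RBM27:67 and RBM27:70, which flank the strongest pair, had log2 fold changes of 0.36 ± 0.28 and 0.17 ± 0.34. RBM27:79 was at -0.09 ± 0.56 and RBM27:82 at 0.33 ± 1.55. RBM27:58 was at -0.40 ± 0.35 and RBM27:61 at 0.48 ± 0.29, while RBM27:42 was at 0.21 ± 0.22, RBM27:44 at 1.79 ± 1.81, RBM27:45 at -0.45 ± 1.67 and RBM27:48 at 0.92 ± 0.59 (SE, n = 3 against 3). None of these 10 tiles was called, but a p that misses the threshold does not show that they were at the Input level. Several of these values moved when 1 immunoprecipitate was left out. Without immunoprecipitate C, the log2 fold change of RBM27:44 was 0.62, with RBM27:45 at -3.16, RBM27:79 at -0.81 and RBM27:82 at -3.11, and none of them was called. Other omissions moved values up. Without immunoprecipitate A, RBM27:44 was at 2.38 and RBM27:82 at 0.89. Without immunoprecipitate B, RBM27:45 was at 0.13, RBM27:79 at 0.24 and RBM27:48 at 1.27, again with none of them called.

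Of the 9 RBM27 tiles called higher, 8 had a neighbour by number that was also called higher (88.9%), against 158 of 211 in the rest of the pool (74.9%). Across the 77 pairs of consecutive tested tiles the log2 fold changes were weakly related (Pearson r = 0.24, Spearman rho = 0.23), as a description across tiles that share libraries and may share sequence. Without the tiles called lower the 74 remaining pairs gave r = 0.47 and rho = 0.26. Without all called tiles the 60 remaining pairs gave r = 0.02 and rho = -0.05. These tiles were removed by their own fold changes, which by itself changes r, so no conclusion is drawn from the difference.

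No RBM27 tile with a number of 42 or less was called higher, whereas 9 of the 38 tested tiles from 43 on were. This border was drawn after the values were seen. Tiles 1 to 42 had a higher median Input level (641 CPM) than tiles 43 to 83 (106 CPM), so position in the number order and Input level moved together. Of the 9 tiles called higher, 8 had an Input mean below the RBM27 median of 242 CPM. Their median Input level was 44.1 CPM, against 356 CPM for the RBM27 tiles not called. In the rest of the pool the medians were 212 CPM for tiles called higher and 393 CPM for those not called. Input is the denominator of the fold change, so the measures are not independent, and the part of Input level in the calls was not tested.

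The tiles of highest Input level were not enriched. RBM27:2, RBM27:16 and RBM27:17 averaged 2684, 3085 and 2698 CPM in the immunoprecipitates, against 2630, 2625 and 2600 CPM in Input, and they were the 3 most abundant RBM27 tiles in both groups. Their log2 fold changes were 0.03 ± 0.15, 0.23 ± 0.13 and 0.05 ± 0.13 (SE, n = 3 against 3), and their libraries overlapped between the groups.

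At the other end, tiles 25 and 83 were nearly or wholly missing from the immunoprecipitates. RBM27:25 had no read in the immunoprecipitates, against 10.2, 20.4 and 21.0 CPM in Input (1829 reads in all). The tile was called lower (adjusted p = 0.0129 by edgeR). If each read is taken as an independent count, a count of 0 allows up to 0.0636 CPM over the 3 immunoprecipitates (3 counts over the group). Against the pooled Input count the tile would then be at least 275-fold lower, or lower by at least 8.11 on the log2 scale. The exact two-sided 95% interval for the log2 ratio reached up to -7.81, and both limits cover counting error only. They do not cover whether a barcode was recovered at all. RBM27 barcodes that were read in the immunoprecipitates A, B and C had medians of 583, 533 and 526 reads. A single recovered barcode could thus have placed the tile outside these limits. Only 8 of its 22 barcodes were ever read in Input, and the one of most reads held 46.4% of the tile. The call was lost when any 1 Input library was left out (adjusted p of 0.0632 to 0.0713 in edgeR). Its neighbours RBM27:24 and RBM27:26 were at -0.07 ± 0.35 and -0.30 ± 0.23.

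RBM27:83, the last tile, had 1 read in the immunoprecipitates, in library A, against 22.5, 18.0 and 26.0 CPM in Input, from 2333 reads. The log2 ratio of the pooled scaled counts was -10.04, with an exact 95% counting interval of -15.3 to -7.56 (adjusted p = 0.00553 by edgeR). In Input 15 of its 22 barcodes were read, 12 of them with at least 30 reads. With 1 immunoprecipitate read in all, none of these 12 could be higher there, so their direction adds nothing to the tile sum. The neighbouring RBM27:82 also varied between the immunoprecipitates, at 0.624, 1.93 and 40.3 CPM in A, B and C, against 13.6, 10.5 and 9.99 CPM in Input. A single barcode held 94.6% of its immunoprecipitate reads. Tile 83 is thus parted from the enriched tiles 80 and 81 by 1 variable tile.

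A number of further tiles lay below Input without passing the test. Of the 69 tiles not called, 44 had a log2 fold change below 0, and 6 had an unadjusted p under 0.05, all of them lower: tiles 15, 36, 52, 53, 54 and 71. Called tiles included, 46 of the 80 RBM27 tiles were below 0, against 853 of 1563 in the pool. An unadjusted p under 0.05 by edgeR was found for 17 of the 80, against 470 of the 1563. RBM27:71 had the lowest log2 fold change among the tiles not called, at 28.9, 53.3 and 93.8 CPM in the immunoprecipitates A, B and C, against 168, 171 and 159 CPM in Input (-1.50 ± 0.47, adjusted p = 0.065 by edgeR). It lay 2 numbers after the strongest tile. All 7 tested tiles from 51 to 58 were below 0, between -0.79 and -0.19, among them RBM27:52 at -0.79 ± 0.26 (adjusted p = 0.0762 by edgeR). When library size was the only scaling, the median over all tiles shifted by -0.24 and 11 RBM27 tiles were called lower in place of 2, while 7 of the 9 remained called higher. DESeq2 called 6 RBM27 tiles lower, and edgeR called 1 without any 1 of the Input libraries and 4, 6 and 7 without immunoprecipitate A, B and C.

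The lowest values after RBM27:71 among the tiles not called were those of RBM27:76 (-1.24 ± 1.42) and RBM27:34 (-1.20 ± 2.20), and the highest those of RBM27:8 (1.96 ± 1.23), RBM27:44 and RBM27:48. RBM27:34 had no read in immunoprecipitates A and B but 54.7 CPM in C, from 4 barcodes, against 51.4, 40.8 and 33.3 CPM in Input. Its value rested on immunoprecipitate C: without that library no immunoprecipitate read was left, the fitted log2 fold change was -13.1, which depends on the prior count, and the tile was called lower (adjusted p = 0.00202 by edgeR). RBM27:76 had a log2 fold change of -0.62 without immunoprecipitate C and at -2.11 without A. RBM27:71 was called lower without immunoprecipitate C (-1.98, adjusted p = 0.0121 by edgeR). All immunoprecipitate reads of RBM27:8 came from 1 barcode, and without the barcode of most reads of each tile no immunoprecipitate read was left and the fitted log2 fold change turned to -9.65 (adjusted p = 0.0351 by edgeR), a value that depends on the prior count.

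Far fewer RBM27 barcodes were read in the immunoprecipitates than in Input. Of the 1826 RBM27 barcodes, 1099, 1060 and 1015 had no read in the immunoprecipitates A, B and C, against 277, 273 and 272 in Input. In percent these were 60.2%, 58.1% and 55.6%, against 15.2%, 15.0% and 14.9%. In the rest of the pool the shares were 51.0%, 48.6% and 46.4% in the immunoprecipitates, against 9.08%, 8.85% and 8.99% in Input. The barcodes that were read in the immunoprecipitates had medians of 583, 533 and 526 reads, against 415, 457 and 517 reads in Input. Reads thus fell on fewer barcodes in the immunoprecipitates.

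RBM27 tiles also varied more between immunoprecipitates than between Input libraries. The median coefficient of variation over the 80 tiles was 27.9% in the immunoprecipitates and 9.56% in Input. Of the tested tiles, 8 had no read in at least 1 immunoprecipitate, and none lacked reads in an Input library.

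With 1 test per barcode, 22 of 1440 tested RBM27 barcodes were called higher (1.53%) and 321 lower (22.3%), against 1.99% higher and 18.1% lower over the 30210 barcodes tested in the pool. Of those called higher, 7 belonged to RBM27:68 (15 tested), 7 to RBM27:69 (16 tested), 4 to RBM27:80 (21 tested) and 4 to RBM27:81 (14 tested). Only 2 barcodes of RBM27:69 had at least 30 reads in Input, so its barcodes could pass the low-count filter through immunoprecipitate reads. Barcodes of 1 tile share the libraries and the tile sum, so these counts are a description and not further tests of the tile. In the 9 tiles called higher, 9 barcodes were called lower, 3 of them in RBM27:43, 3 in RBM27:47, 2 in RBM27:59 and 1 in RBM27:80. For tiles 43, 46, 47, 59 and 60, no single barcode was called higher, and the calls were those of the sums over barcodes.

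Averaged over 5 consecutive tile numbers, RBM27 was highest at tiles 66 to 70, with a mean log2 difference to Input of 2.93 (SD 0.39 over the 3 immunoprecipitates), 2 of the 5 called higher. The next window apart from it was tiles 59 to 63, at 1.06 (SD 0.24). The lowest was tiles 73 to 77, at -2.47 with an SD of 1.36 and no called tile. In that window RBM27:73 and RBM27:75 each lacked reads in 1 immunoprecipitate, and RBM27:76 had 0.06 CPM in immunoprecipitate C. Its mean was -2.79 and -2.04 with prior counts of 0.5 and 10. The fitted log2 fold changes of its 5 tiles ran from -1.24 for RBM27:76 to 0.49 for RBM27:74. Tiles 25 to 29 followed at -1.83 (SD 0.25), a window that holds RBM27:25, while the other 4 tiles lay between -0.44 and -0.24.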

How the data were processed

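The deposited table holds raw read counts per tile and barcode, 1 column per library, per the file headers; how the authors assigned reads to barcodes is not given in the sources used here. Counts of the 22 barcodes of each tile were summed. Columns were placed in their group by name, with 0 columns of per-sample values unmatched. All 1599 tiles of the pool were fitted together in R 4.3.3: filterByExpr, TMM scaling and the quasi-likelihood test of edgeR 4.0.16 (robust), with adjusted p under 0.05 called. The standard error was taken as |log2 fold change| / √F. Log2 CPM values for windows and pair ratios used a prior count of 2. The test was run on simulated data first. Pairs of libraries within a group had a chi-square of 71.6 to 666 per degree of freedom over tiles, so none was a second copy of another. The other 4 pools were used only to count tiles.

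Alternatives were RLE factors, library size alone, a mean count of at least 50 or no filter, DESeq2 1.42.0, the column letter as a block, each library left out in turn, removal of each tile's barcode of most reads, 1 test per barcode, calls of at least 2-fold, barcode minimums of 10 and 100 reads, and prior counts of 0.5 and 10. Every called tile was named, with its number neighbours, the 3 highest and 3 lowest tiles not called, the 3 most abundant tiles and the 2 highest and 2 lowest windows; windows were also required not to overlap. Tiles 15, 36, 51 to 58, 73 and 75 were named after their values were seen. The members and these choices were made with earlier results of these data known.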

Additional observations from a re-analysis of the deposited data

Results flagged for a closer look

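Both tiles below failed the filter on low counts, were not tested, and had more reads in the immunoprecipitates than in Input. RBM27:49 had 149 reads, all in immunoprecipitate C and from 1 barcode, against 7 reads in Input from 2 other barcodes. RBM27:50 had 70 reads from 3 barcodes, all in immunoprecipitate C, against 20 reads in Input from 4 barcodes, and 1 barcode was read in both groups. The third tile that was not tested, RBM27:57, had no read in any of the 6 libraries.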

How the results depend on the processing

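The 9 RBM27 tiles called higher numbered 7 to 10 when a library was left out, and 22 barcodes with 1 test per barcode. The 2 called lower were 1 to 7 without 1 library, 11 with library size alone, 6 by DESeq2, 4 without the barcode of most reads of each tile, and 321 barcodes with 1 test per barcode. In the pool, 65 tiles were called lower, 227 with library size alone, 169 by DESeq2, and 12 to 146 without 1 library, while the share called higher among all calls was 46.6% with library size alone, 77.9% with RLE factors, 63.3% by DESeq2, 64.4% to 68.5% without 1 immunoprecipitate and 90.5% to 93.8% without 1 Input library. Of the 11 calls, 8 held in each of the 13 refits: tiles 43, 59, 60, 68, 69, 80, 81 and 83. The calls of tiles 25, 46 and 47 did not, RBM27:47 also not with a mean count of at least 50 (adjusted p = 0.0502 in edgeR). RBM27:8 turned to -9.65 without the barcode of most reads of each tile. The median log2 fold change of RBM27 tiles, -0.15, was -0.38 with library size alone and -0.18 to -0.083 without 1 library. The mean of tiles 25 to 29 was -2.23 and -1.37 with prior counts of 0.5 and 10. Beyond these, the cause was not tested.

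With the column letter as a replicate block, 7 RBM27 tiles were higher and 2 lower, with tiles 46, 47 and 25 lost and RBM27:15 gained, and the median was -0.25. Libraries of the same letter did not deviate together (r of -0.04, 0.01 and -0.02 over pool tiles for A, B and C), and the labels carry numbers in place of letters, so the letters were not taken to pair the libraries.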
